A study of Mus musculus with 2 samples.

Results

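Mesothelial-like cells were 682 of the 23032 cells that passed the filters in single-cell RNA sequencing (scRNA-seq) of the lungs of 1 control mouse and 1 *Gli1 HHIPCKO* mouse at P14. The control library held 331 of them among 10917 cells and the *Gli1 HHIPCKO* library 351 among 12115. They were selected on their own counts. A cell had to hold a unique molecular identifier (UMI) of at least 3 of the 7 genes *Msln*, *Upk3b*, *Lrrn4*, *Upk1b*, *Gpm6a*, *Muc16* and *Cldn15*, and no UMI of the leukocyte gene *Ptprc* or the ciliated cell gene *Foxj1*. It also needed 200 to 6000 detected genes and at most 10% of its UMIs from mitochondrial genes. The levels of the genes in this rule therefore describe the choice of the cells and are not findings.

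Mesothelial cells form the thin sheet that covers the lung as the visceral pleura, on a basement membrane above a layer rich in elastin and collagen. They carry epithelial keratins and junctions together with genes usual in mesenchyme, and they secrete hyaluronan, lubricants and complement proteins onto the pleural surface. In the developing lung, the mesothelium is a source of FGF and retinoic acid signals for the tissue beneath, and WT1 and mesothelin are among its best known markers. HHIP is a membrane protein that binds hedgehog ligands and so restrains the pathway, whose targets include *Gli1*, *Ptch1* and *Hhip* itself.

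Both mice carried *Gli1 creER/+* and *Hhip flox/flox*, so the control had the same alleles. The *Gli1 HHIPCKO* mouse was given tamoxifen once a day on 3 days, the first at birth, which activates the recombinase in cells that express *Gli1* at that time, and the control mouse was given oil on the same schedule. Live stromal cells (CD45, CD31 and CD326 negative) and epithelial cells (CD326 positive) were sorted from each lung and mixed with the stromal cells in excess before 1 library was made per mouse. A share of cells is thus a share of a sorted mixture, and the sources used here do not say in which sorted fraction mesothelial cells lay.

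With 1 mouse per group there was no replicate error, and no difference between the mice was tested. UMIs were summed over the mesothelial-like cells of a library and are given as counts per 1000000 UMIs of those cells (CPM). Differences are given as log2 of the *Gli1 HHIPCKO* level divided by the control level, called the log2 ratio. Its 95% interval is an exact binomial interval given the sum of both counts, and levels and shares have exact Poisson and exact binomial intervals. All of them cover counting error only, and they are narrower for genes with more UMIs. The mice also differed in sex-linked genes. *Xist* had 0 UMIs in the 331 control cells, where 3 counts would be 2.07 CPM, and 319.6 CPM in the *Gli1 HHIPCKO* cells, at least 154.7-fold higher. The Y-linked gene *Ddx3y* had 55.8 CPM in control cells and 0 UMIs in *Gli1 HHIPCKO* cells, at least 25.8-fold lower. An effect of sex, of tamoxifen and of the *Hhip* deletion cannot be told apart between these animals.

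Mesothelial-like cells made up 3.03% of the control library (95% interval 2.72% to 3.37%) and 2.90% of the *Gli1 HHIPCKO* library (2.61% to 3.21%). The intervals overlapped. With each cell thinned to 2000 UMIs before the rule was applied, the shares were 2.90% (253 of 8711) and 2.26% (220 of 9732). Without the cells that also met the marker rule of a fibroblast or AT2 cell, they were 0.889% and 1.27%, so the order of the libraries depended on these choices. Leaving them out took away 234 of 331 control cells and, in *Gli1 HHIPCKO*, 197 of 351, most of them by the adventitial fibroblast rule. Ratios without them, given below, therefore describe a minority of the mesothelial-like cells, rest on fewer UMIs and do not test for doublets alone. The control cells held 1452082 UMIs at 3974 UMIs and 1868 genes in the median cell, and the *Gli1 HHIPCKO* cells 1386023 UMIs at 3249 and 1556. All other cells had medians of 3523 and 3793 UMIs, so the control mesothelial-like cells were deeper than the rest of their library and the *Gli1 HHIPCKO* ones shallower. The largest cell held 1.11% of the summed control UMIs and 1.16% of those of *Gli1 HHIPCKO*, so no cell set a library's sum. The libraries shared 193 barcode sequences, and none of them was a mesothelial-like cell in both.

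All 7 rule genes were found in 121 control and 100 *Gli1 HHIPCKO* cells. Just inside the threshold, with 3 rule genes, were 23 control and 37 *Gli1 HHIPCKO* cells, with median depths of 1223 and 1327 UMIs, and just outside, with 2, were 28 and 35 cells with 2057 and 1959 UMIs. The cells near the threshold were thus few and shallow. *Aldh1a2*, which is outside the rule, had a UMI in 90.1% and 88% of the cells with 7 rule genes, in 34.8% and 32.4% of those with 3, in 21.4% and 22.9% with 2 and in 1.26% and 1.68% of the cells with none. Of the cells with at least 3 rule genes, 3 control cells were left out for a *Ptprc* UMI, and 3 control and 4 *Gli1 HHIPCKO* cells for a *Foxj1* UMI.

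Among the rule genes, *Msln*, the gene of the surface glycoprotein mesothelin, was the most abundant, with 4846 CPM in control cells and 4724 CPM in *Gli1 HHIPCKO*. *Upk3b*, a uroplakin of the mesothelial and urothelial surface, had 2688 and 2597 CPM. Both transcripts were found together in 323 of 331 mesothelial-like cells of the control mouse and 334 of 351 of the *Gli1 HHIPCKO* mouse, and none of these cells lacked both. The other 5 lay between 336 CPM for the claudin gene *Cldn15* and 730.0 CPM for the glycoprotein gene *Gpm6a* in the control library. In all other cells of the libraries, *Msln* stood at 6.44 and 8.76 CPM.

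The label was checked on genes that took no part in the choice. *Wt1*, the transcription factor most used to mark mesothelium, had 111 CPM in control cells and 100.3 CPM in *Gli1 HHIPCKO*, with a UMI in 34.4% and 28.2% of them against 0.0850% and 0.0595% of all other cells. Its level was low, and few other cells held it. Of 14 mesothelial markers outside the rule, at least 3 had a UMI in 308 of 331 control cells (93.1%, 89.8% to 95.5%) and in 303 of 351 *Gli1 HHIPCKO* cells (86.3%, 82.3% to 89.7%). The same held for 10.5% of other cells in the control library and 9.92% in the *Gli1 HHIPCKO* library. *Bnc1*, a zinc finger gene of the mesothelium, had 117 and 69.3 CPM, and the keratins *Krt7* and *Krt19* had 634 and 459 CPM in control cells and 460.3 and 419 CPM in *Gli1 HHIPCKO*. *Calb2*, the calretinin gene used to mark mesothelium in pathology, had 0 UMIs in the mesothelial-like cells of both libraries, which allows up to 2.07 and 2.16 CPM. *Fgf9* was low, at 8.26 and 6.49 CPM.

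Genes outside the rule, found in at least 25% of the cells of both libraries, with the largest ratio over all other cells, taken as the smaller of the ratios in the libraries, showed what the cells shared beyond it. The highest was *Slurp1*, which encodes a secreted protein of the Ly6 family, with 2369.7 CPM in control mesothelial-like cells against 3.82 CPM in other cells, and 1140 against 1.87 CPM in *Gli1 HHIPCKO*. Other genes of the 12 also encode secreted proteins. *Rspo1*, an enhancer of Wnt signalling, had 452 and 491 CPM against 2.47 and 1.37 CPM in other cells. *Sfrp2*, a secreted modulator of Wnt signalling, had 1355 and 1659 CPM against 7.59 and 5.04. Both genes were also low in adventitial fibroblast-like cells, at 8.23 and 4.15 CPM for *Rspo1* and 14.1 and 11.1 CPM for *Sfrp2*. *Aldh1a2*, the main enzyme of retinoic acid synthesis in embryonic mesothelium, had 685 and 527 CPM against 4.52 and 5.82 CPM. The remaining genes of the 12 were *Wt1*, *Pkhd1l1*, *Lgals2*, *Sbsn*, *Ildr2*, *Tmem151a*, *Gm12840* and *Fxyd3*, with 109 CPM for *Ildr2* to 1014 CPM for *Sbsn* in the control library.

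**Figure D1:**
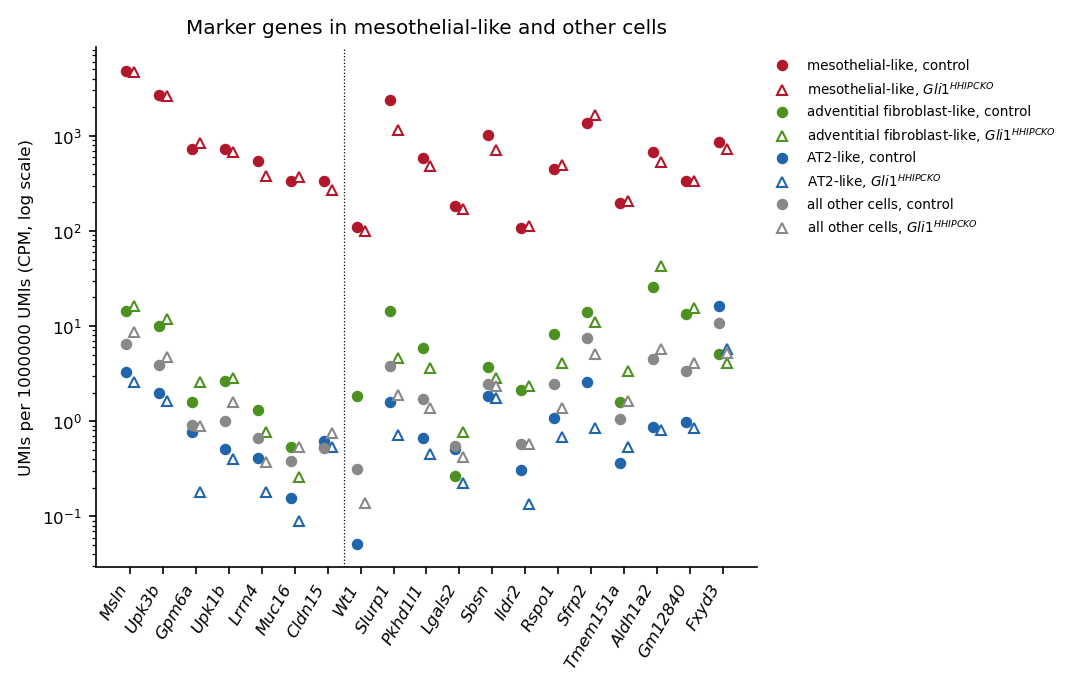
Levels of marker genes in mesothelial-like cells, adventitial fibroblast-like cells, AT2-like cells and all other cells of the control library (filled circles) and the *Gli1 HHIPCKO* library (open triangles), as CPM on a log axis; symbols left of the dotted line are the 7 genes of the rule, and a level of 0 is not drawn. *Wt1*, outside the rule, stood at 111 and 100.3 CPM in mesothelial-like cells and at 0.312 and 0.139 CPM in all other cells.

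The cells carried many genes of stroma at high levels. *Eln*, the gene of elastin, was their most abundant matrix transcript, with 20671 CPM in control cells and 10192 CPM in *Gli1 HHIPCKO*, while adventitial fibroblast-like cells had 13922 and 12691 CPM and alveolar fibroblast-like cells 16983 and 12147 CPM. Control mesothelial-like cells thus stood above both of these kinds of fibroblast-like cells in *Eln*, and *Gli1 HHIPCKO* cells below both. Myofibroblasts and smooth muscle cells were not selected for comparison. *Col1a1*, a chain of type I collagen, had 5219 and 3240.2 CPM, far below the 23241 and 21988 CPM of adventitial fibroblast-like cells. The type IV collagen genes of the basement membrane differed by chain. *Col4a1* had 988 and 915 CPM and *Col4a2* 711 and 649 CPM in mesothelial-like cells, below the 1570 and 1517 and the 769 and 811 CPM of adventitial fibroblast-like cells. *Col4a4* had 1191 and 1259.7 CPM in mesothelial-like cells and 26.0 and 22.3 CPM in adventitial fibroblast-like cells, and *Col4a3* had 232 and 286 against 7.69 and 6.74 CPM. The products of *Col4a3* and *Col4a4* assemble with that of *Col4a5* into the type IV collagen network known from the glomerulus and the alveolar epithelium. *Kdr*, an endothelial receptor gene for VEGF, had 384 and 440.1 CPM, with a UMI in 67.1% and 67.2% of the cells against 0.855% and 0.686% of AT2-like cells, although at least 3 of 6 endothelial markers were found in 1 control and 3 *Gli1 HHIPCKO* cells.

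Markers of other cell types were counted to see what else the barcodes held. At least 3 of 8 AT2 markers had a UMI in 115 of 331 control cells and 91 of 351 *Gli1 HHIPCKO* cells. *Sftpc*, the surfactant gene of AT2 cells, was found in 99.4% and 97.4% of mesothelial-like cells at a median depth of 3974 and 3249 UMIs, and in every AT2-like cell at 4882 and 5844.5 UMIs, so it was present in nearly all droplets of the libraries. The summed AT2 markers stood at 43027 and 49299 CPM in mesothelial-like cells against 320789 and 295175 CPM in AT2-like cells, and against 1990.3 and 1661 CPM in adventitial fibroblast-like cells, for which cells that also carried AT2 markers had been left out. No such cells were left out of the mesothelial-like cells, and part of these barcodes held far more AT2 transcripts than the fibroblasts did. *Sftpb*, also of AT2 cells, reached 26.9% and 20.8% of the mesothelial-like cells and held 681 and 1037.5 CPM. At least 3 of 8 smooth muscle and pericyte markers were found in 32 control and 24 *Gli1 HHIPCKO* cells, and at least 3 of 7 AT1 markers in 25 and 31. Airway secretory, ciliated and immune markers reached that number in at most 2 cells of a library. Doublets were not removed, and their part in the differences below was not tested.

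Fibroblast genes were widespread. At least 3 of the 7 genes that mark adventitial fibroblast-like cells, such as *Dcn*, had a UMI in 214 control and 174 *Gli1 HHIPCKO* mesothelial-like cells. On the list of 8 fibroblast markers, at least 3 had a UMI in 77 control and 97 *Gli1 HHIPCKO* cells, the summed level was 1719.6 and 3102 CPM, and 6 of 6 ranked genes had a higher level in *Gli1 HHIPCKO* with an interval above 0 (median log2 ratio 0.67), against 12.9% of all ranked genes. The counts of cells thus went down on the first set of genes and up on the second. *Dcn* itself, the gene of the proteoglycan decorin, had 472 and 701 CPM, with a UMI in 68.6% and 73.5% of the cells, against 1638 and 2579 CPM in adventitial fibroblast-like cells and 3.30 and 3.38 CPM in AT2-like cells. Since *Dcn* is in the rule whose cells were left out of the AT2-like cells, the level in these depends on that choice and does not show what free RNA gives. *Mfap4*, a microfibril gene of stroma, showed another pattern, with UMIs in 19.6% and 26.5% of the cells and 17.9% of its control UMIs in 1 cell.

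Mesothelial-like cells varied among themselves beyond their depth. The spread of a gene was measured as the mean squared Pearson residual over cells, which is 1 where cells differ only by depth and Poisson counting. Over 5002 genes with a UMI in at least 10% of the cells of both libraries, its median was 1.08 in control and 1.10 in *Gli1 HHIPCKO* cells. Most genes were thus close to Poisson counting. Among genes at least 4-fold above other cells in both libraries, *Slpi*, the gene of a secreted protease inhibitor, had the largest spread, at 29.1 and 24.3. With each cell thinned to 2000 UMIs, its median was 1 UMI in both libraries, while the highest 10% of cells held at least 8 and the highest cell 75 in control and 52 in *Gli1 HHIPCKO*. *Slurp1* was also spread widely, with a UMI in 63.3% of thinned control cells and 45.1% of thinned *Gli1 HHIPCKO* cells (70.7% and 51.6% unthinned), and at least 14 and 8 UMIs in the highest 10%. *C3* was present in nearly all cells, with a median of 14 UMIs per thinned control cell and 7 per *Gli1 HHIPCKO* cell. Thinning left 270 control and 244 *Gli1 HHIPCKO* cells, and 61 and 107 shallower cells were not used in it.

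Several variable genes varied together over cells in both libraries. In thinned cells, *C3* and *Gpc3*, the gene of a membrane heparan sulfate proteoglycan, had Spearman correlations of 0.623 in control and 0.618 in *Gli1 HHIPCKO*. *C3* and the complement gene *C4b* had 0.512 and 0.638. *Crip1*, which encodes a small LIM protein, had correlations to *Igfbp6* of 0.620 and 0.654 and to *S100a6* of 0.609 and 0.669. These genes were not shown to form separate sets. *Msln* correlated with *C3* (0.598 and 0.442) and with *Crip1* (0.461 and 0.544). *Slurp1* and *Sfrp2* were the only pair with a correlation below 0 in both, at −0.321 and −0.183, so cells with *Slurp1* tended to have less *Sfrp2* in the control library and weakly so in *Gli1 HHIPCKO*. A few pairs near 0 differed in sign between the libraries, such as *Slurp1* and *C4b* (0.068 and −0.084). These are descriptions over 270 and 244 cells of 1 library each, at equal depth, and the genes were chosen after their spread was seen. Cells with markers of other cell types were kept, such as the 115 of 331 control and 91 of 351 *Gli1 HHIPCKO* cells with at least 3 AT2 markers. Transcripts of other cells would lower the mesothelial genes of a cell together at equal depth. Their part in the spread and in these correlations was not tested.

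*Hhip* (ENSMUSG00000064325, chromosome 8, 79965851 to 80058006, minus strand of GRCm38) is the floxed gene. In mesothelial-like cells it had 254 CPM in control (229 to 281) and 67.8 CPM in *Gli1 HHIPCKO* (54.8 to 83.0), a log2 ratio of −1.91 (−2.25 to −1.58). A UMI was found in 43.5% of the control cells and 18.8% of those of *Gli1 HHIPCKO*, or 31.1% and 11.1% at 2000 UMIs. The library labelled as deleted was thus the lower. All other cells had 335 and 89.9 CPM, a log2 ratio of −1.90, and AT2-like cells 53.2 and 15.3 CPM with a UMI in 7.05% and 5.21% of cells at median depths of 4882 and 5844.5 UMIs. The share in mesothelial-like cells was above that in both libraries. Counts are per gene, so they do not show whether the remaining UMIs came from the deleted part of *Hhip*.

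Some hedgehog target genes other than *Hhip* were higher in the *Gli1 HHIPCKO* cells. *Ptch1*, the hedgehog receptor and a target of the pathway, had 47.5 CPM in control cells and 110.4 CPM in *Gli1 HHIPCKO*, for a log2 ratio of 1.22 (0.80 to 1.65). *Gli1*, the target that drives the recombinase, had 7 UMIs over all control cells and 20 over all *Gli1 HHIPCKO* cells, 4.82 and 14.4 CPM, a log2 ratio of 1.58 (0.28 to 3.07). Its level was thus low in both. *Foxf1*, a transcription factor of lung mesenchyme downstream of hedgehog signalling, had 79.2 and 141 CPM (0.83, 0.49 to 1.17). The signal transducer gene *Smo* had 114 and 117 CPM and the transcription factor gene *Gli2* 26.9 and 31.7 CPM, with intervals that included 0. *Gas1*, a co-receptor, was the most abundant gene of the list at 632 and 739 CPM (0.23), and the co-receptor gene *Cdon* had 129 and 98.8 CPM (−0.38). None of the ligand genes *Shh*, *Ihh* and *Dhh* had a UMI in the mesothelial-like cells of either library. Of the 15 genes of the list, 8 were ranked, 1 at least 2-fold higher (*Ptch1*) and 1 at least 2-fold lower (*Hhip*), against 1.47% and 1.31% of all ranked genes, with a median log2 ratio of 0.13. Of the ranked genes, 3 had an interval above 0 and 2 below 0 (against 12.9% and 13.3%). The call of *Ptch1* was lost narrowly without the cells that met a fibroblast or AT2 rule, at 0.992 from 18 and 46 UMIs. All other cells differed in the same direction for these targets, with log2 ratios of 0.81 for *Ptch1* and 1.44 for *Gli1*.

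Over all genes, 6039 were ranked, with at least 50 UMIs over the mesothelial-like cells of both libraries and a UMI in at least 10% of those of either. Of these, 89 were at least 2-fold higher in *Gli1 HHIPCKO* cells (1.47%) and 79 at least 2-fold lower (1.31%), and the median log2 ratio was −0.023. The counting interval lay wholly beyond 2-fold for 31 higher and 12 lower genes. Differences past 2-fold were few. Neither direction led by every count. The interval lay above 0 for 781 genes (12.9%) and below 0 for 804 (13.3%). With each cell thinned to 2000 UMIs, 74 were at least 2-fold higher and 39 lower, and with a minimum of 10 UMIs 552 and 600. The counts include *Xist*, the Y-linked genes *Ddx3y* and *Eif2s3y* and the haemoglobin genes *Hbb-bs* and *Hbb-bt*, which are given apart.

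Of the 10 ranked genes highest in *Gli1 HHIPCKO*, 3 (*Mt2*, *Ddit4* and *Mt1*) belong to the glucocorticoid and metallothionein list. *Rgcc*, a regulator of the cell cycle, had 42.0 CPM in control cells and 191 CPM in *Gli1 HHIPCKO*, for a log2 ratio of 2.19 (1.78 to 2.61). AT2-like cells held far more of it, 247 and 1003 CPM, and so did *Lcn2*, the gene of lipocalin, with 873 and 1989 CPM there against 84.7 and 308 CPM in mesothelial-like cells. Without the cells that also met the marker rule of a fibroblast or AT2 cell, *Lcn2* had a log2 ratio of 0.64, from only 2 and 4 UMIs. Over all mesothelial-like cells, 23.0% of its *Gli1 HHIPCKO* UMIs lay in 1 cell. Its ratio was 0.47 without the cells that held 3 markers of an airway, endothelial, immune, smooth muscle or AT1 lineage or much haemoglobin, a choice made after the data were seen. *Rgcc* had 0 control UMIs left in the former and a log2 ratio of 2.24 in the latter. The list of 8 AT2 markers had 6 of 7 ranked genes with an interval above 0 in mesothelial-like cells, against 12.9% of all ranked genes, and the part of AT2 transcripts in these ratios was not otherwise tested. *Klf15*, a transcription factor induced by glucocorticoids, had 11.0 and 49.8 CPM (2.18, 1.38 to 3.06). *Cdo1*, an enzyme of cysteine breakdown, had 37.2 and 148 CPM (1.99, 1.55 to 2.45), with a UMI in 6.30% and 27.9% of cells at 2000 UMIs (12.4% and 34.2% unthinned). At that depth 0.803% and 2.79% of AT2-like cells held it, fewer than of *Gli1 HHIPCKO* mesothelial-like cells. The other 6 were *Cacna1d*, *Mt2*, *Slc10a6*, *Svep1*, *Ddit4* and *Mt1*, with log2 ratios of 1.82 to 2.07. *Slc10a6* had 0.64 without the cells that met a fibroblast or AT2 rule. *Svep1*, an extracellular adhesion protein, had 15.8 and 59.2 CPM (1.90, 1.22 to 2.64) against a log2 ratio of 0.55 in all other cells.

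The 10 ranked genes lowest in *Gli1 HHIPCKO* began with *Dmkn* and *Hhip*. Without the cells that also met the marker rule of a fibroblast or AT2 cell, 5 of them stayed at least 2-fold lower, against 8 of the 10 highest that stayed at least 2-fold higher, with *Rgcc*, *Mt2* and *Svep1* counted as such because no control UMI was left. Under the choice without cells that held markers of other lineages, it was 10 of the lowest and 9 of the highest, so neither set was steadier under both choices. Without the cells that met a fibroblast or AT2 rule, several of those that stayed rested on few UMIs. These were 1 and 10 for *Cacna1d*, 2 and 24 for *Ddit4*, 10 and 2 for *Necab3* and 8 and 5 for *Hoxb2*, while *Hhip* kept 66 and 29. *Dmkn*, a secreted protein of epithelia and one of the mesothelial markers outside the rule, had 55.1 CPM in control cells and 10.8 CPM in *Gli1 HHIPCKO*, for a log2 ratio of −2.35 (−3.25 to −1.54). *Lgals7*, a galectin of stratified and mesothelial epithelia, had 73.7 and 20.9 CPM (−1.82, −2.46 to −1.21) and was almost absent from other cells, at 0.408 and 0.139 CPM. *Plaur*, the urokinase receptor, had 46.1 and 13.7 CPM (−1.75), and *Plat*, tissue plasminogen activator, had 50.3 and 16.6 CPM (−1.60, −2.34 to −0.91). With each cell thinned to 2000 UMIs, *Plat* had only −0.67. In all other cells the log2 ratios were −0.39 for *Plaur* and −0.38 for *Plat*. Leaving out the cells that met a fibroblast or AT2 rule gave a log2 ratio of −0.95 for *Dmkn*, −0.95 for *Plaur*, −0.65 for *Plat* and −0.014 for *Lgals7*, from 3, 9, 11 and 11 control UMIs and 2, 6, 9 and 14 in *Gli1 HHIPCKO*. *Isg15*, an interferon response gene, had 59.9 and 18.8 CPM (−1.68, −2.37 to −1.03), and −1.59 in all other cells. *Stmn1*, a microtubule regulator of dividing cells, had 84 and 25 UMIs (−1.68, −2.39 to −1.02), but 20.2% of its control UMIs lay in 1 cell, and the ratio turned to 2.22 over the 97 control and 154 *Gli1 HHIPCKO* cells that carried too few fibroblast and AT2 markers to be taken for those cells, where 1 and 6 UMIs were left. *Necab3*, *Sept9* and *Hoxb2* completed the 10, with log2 ratios of −1.87, −1.63 and −1.58.

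**Figure D2:**
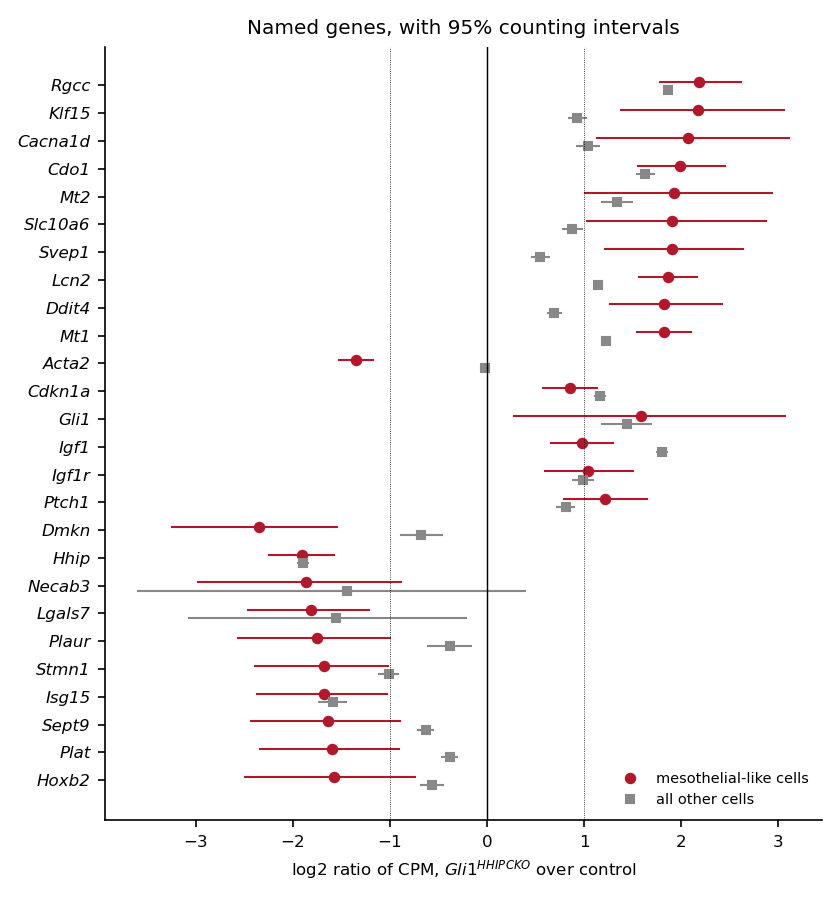
Log2 ratio of CPM, *Gli1 HHIPCKO* over control, of the 10 highest and 10 lowest ranked genes and of the other genes named for the design, in mesothelial-like cells (circles) and in all other cells (squares), with 95% counting intervals as lines; dotted lines mark a 2-fold difference. *Rgcc* stood at 2.19 and *Dmkn* at −2.35 in mesothelial-like cells, and *Acta2* at −1.35 in mesothelial-like and −0.025 in all other cells.

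Genes of the IGF pathway, a growth factor system that the study examined, went in different directions. The ligand gene *Igf1* had 88.1 CPM in control cells and 173 CPM in *Gli1 HHIPCKO*, for a log2 ratio of 0.97 (0.66 to 1.29), with a UMI in 13.3% and 25.4% of thinned cells (21.4% and 27.6% unthinned). AT2-like cells had it in 1.38% and 5.98% at that depth, and all other cells a log2 ratio of 1.80. *Igf2* had the larger ratio in mesothelial-like cells, 51.0 against 139 CPM (1.45, 1.06 to 1.86), and the receptor gene *Igf1r* had 43.4 and 89.5 CPM (1.04, 0.60 to 1.51). The receptor genes *Igf2r* and *Insr* had log2 ratios of 0.019 (−0.42 to 0.46) and 0.20 (−0.43 to 0.83), with intervals that included 0. The log2 ratio was larger without the cells that met a fibroblast or AT2 rule, at 1.83 for *Igf1* (14 and 64 UMIs) and 2.43 for *Igf2* (14 and 97 UMIs). Without those that held markers of other lineages, *Igf1* had 0.74, and *Igf1r* had 0.77 with each cell thinned. The binding protein genes were far more abundant and went both ways, with *Igfbp6* at 4516 and 3643.5 CPM (−0.31), *Igfbp5* at 2772 and 3651.5 CPM (0.40) and *Igfbp4* at 348 and 221 CPM (−0.66). In all other cells *Igfbp5* had a log2 ratio of −0.75. Of 11 ranked genes of 15, 2 were at least 2-fold higher and 0 lower (against 1.47% and 1.31% of all ranked genes), and 5 had an interval above 0 and 3 below 0 (against 12.9% and 13.3%). The median was 0.20 against −0.023 over all ranked genes.

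Most interstitial matrix genes were lower in *Gli1 HHIPCKO* mesothelial-like cells. *Eln* (ENSMUSG00000029675, chromosome 5, 134702593 to 134747323, minus strand) had 20671 CPM in control cells and 10192 CPM in *Gli1 HHIPCKO*, for a log2 ratio of −1.02 (−1.05 to −0.99). The ratio lay between −1.11 and −0.88 under the alternatives and fell short of 2-fold in 6 of them, so it was close to 2-fold and not firmly past it. With each cell thinned to 2000 UMIs it was found in 99.6% and 96.3% of cells (100% and 97.2% unthinned), so nearly all cells held it in both libraries, which cannot show whether the number of cells that make it differed. AT2-like cells had a UMI of *Eln* in 24.8% and 27.3% at the same depth. All other cells had 7462 and 8077 CPM (0.11). The fibrillar collagen genes *Col3a1* and *Col1a1* had 11979 and 5219 CPM in control cells and 7765 and 3240.2 CPM in *Gli1 HHIPCKO*, log2 ratios of −0.63 and −0.69. *Sparc*, a collagen-binding protein, differed less, with 9125 and 8125 CPM (−0.17). *Fn1*, the fibronectin gene, went the other way, at 359 and 747 CPM (1.05, 0.90 to 1.21), but it was found in 16.3% and 21.4% of the cells, against 5.91% and 14.8% of AT2-like cells, and 17.2% of its control UMIs lay in 1 cell. Its log2 ratio was 0.11 without the cells that met a fibroblast or AT2 rule. All 16 genes of the list were ranked, 13 with a ratio below 0, and the median was −0.29. The interval lay below 0 for 10 and above 0 for 1, against 13.3% and 12.9% of all ranked genes. Abundant genes have narrow intervals, so *Sparc* counted as below 0 at −0.17 (−0.20 to −0.13), and these shares depend on abundance too. The intervals also leave out the spread over cells, which for *Eln* was 87 in control and 60 in *Gli1 HHIPCKO*. Only 1 (*Eln*) was at least 2-fold lower and 1 (*Fn1*) higher, against 1.31% and 1.47%. The summed level of the list was 56913 CPM in control and 37773.5 in *Gli1 HHIPCKO* mesothelial-like cells, and 28109 and 28874.5 CPM in all other cells.

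Genes of the basement membrane had smaller ratios by their median. Of 19 ranked genes of 21, 0 were at least 2-fold higher and 1 lower (against 1.47% and 1.31% of all ranked genes), 3 had an interval above 0 and 8 below 0 (against 12.9% and 13.3%), and the median was −0.11. Intervals narrow with more UMIs, so these shares depend on abundance as well as on the ratio. *Col4a1* and *Col4a2* counted as below 0 at −0.11 (−0.22 to −0.00031) and −0.13 (−0.26 to −0.0013). The most abundant gene of the list, *Col4a4*, had 1191 CPM in control cells and 1259.7 CPM in *Gli1 HHIPCKO* (0.081, −0.015 to 0.18), an interval that included 0. *Nid2*, a nidogen that links laminin and collagen, alone reached 2-fold, with 204 and 91.6 CPM (−1.15, −1.47 to −0.85), while its relative *Nid1* had 136 and 188 CPM (0.47, 0.19 to 0.74). The heparan sulfate proteoglycan genes *Hspg2* and *Agrn* were lower, at −0.61 and −0.57, and the laminin gene *Lama2* was higher, at 0.95 (45.5 and 88.0 CPM). Without the cells that carried fibroblast or AT2 markers, *Nid2* had −0.69, *Lama2* 0.15 and the list a median of 0.14. *Col4a2*, *Col4a6*, *Lama5* and *Lamb2*, which had intervals below 0 over all mesothelial-like cells, then had 0.083, 0.22, 0.12 and 0.145.

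Among surface and lubrication genes, only *Has1* reached 2-fold. *Has1*, a hyaluronan synthase, had 285 CPM in control cells and 99.6 CPM in *Gli1 HHIPCKO*, for a log2 ratio of −1.52 (−1.81 to −1.24), with a UMI in 34.4% and 15.6% of thinned cells (46.2% and 22.5% unthinned). AT2-like cells had it in 0.207% and 0.165% of cells, far below its share in mesothelial-like cells. *C3*, the central complement component and the most abundant gene of the list, had 7744 and 4241 CPM (−0.87, −0.91 to −0.82), against 52.8 and 75.1 CPM in all other cells (0.51). *Clu*, the chaperone clusterin, was higher, at 1746.5 and 2472 CPM (0.50), and the water channel gene *Aqp1* differed little, at 1243 and 1094 CPM (−0.18). Hyaluronan receptor gene *Cd44* was lower, at 62.0 and 31.7 CPM (−0.97, −1.52 to −0.43), but had −0.12 when each cell was thinned to 2000 UMIs. Of 9 ranked genes of 13, 0 were at least 2-fold higher and 1 lower (against 1.47% and 1.31% of all ranked genes), 3 had an interval above 0 and 5 below 0 (against 12.9% and 13.3%), and the median was −0.18. *Has2* had 0 UMIs in the mesothelial-like cells of both libraries. *Slurp1*, the leading marker, also differed, with 2369.7 and 1140 CPM (−1.06, −1.14 to −0.97), and had −0.93 with each cell thinned.

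Other complement and antigen presentation genes differed less than *C3* and in both directions. *C4b* had 1589 CPM in control cells and 1296.5 CPM in *Gli1 HHIPCKO* (−0.29, −0.38 to −0.20), and *Serping1*, the inhibitor of the complement protease C1, had 1852 and 2409 CPM (0.38). Of 10 ranked genes of 13, none reached 2-fold in either direction, 4 had an interval above 0 and 2 below 0 (*C3* and *C4b*), against 12.9% and 13.3% of all ranked genes, and the median was 0.11. *C4b* was no longer lower without the cells that met a fibroblast or AT2 rule, at 0.023. The summed level of the list was 13838 and 10835 CPM in mesothelial-like cells and 4187 and 5080.3 CPM in adventitial fibroblast-like cells, a difference made mostly by *C3*. *C3* had 173 and 312 CPM in the latter, and *Serping1* 2404 and 2737 CPM.

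Epithelial junction and cytoskeleton genes varied around the median of all genes. *Ezr*, which links membranes to actin, was the most abundant, with 904 CPM in control cells and 1151.5 CPM in *Gli1 HHIPCKO* (0.35). The keratins *Krt7* (−0.46), *Krt8* (−0.86) and *Krt18* (−0.24) were lower, with intervals below 0, and *Krt19* had an interval that included 0 (−0.13, −0.29 to 0.031). *Cldn10*, a claudin, had 63.4 and 24.5 CPM (−1.37, −1.98 to −0.79) and alone reached 2-fold among 13 ranked genes of 17. Over the list, 0 genes were at least 2-fold higher and 1 lower (against 1.47% and 1.31% of all ranked genes), 2 had an interval above 0 and 5 below 0 (against 12.9% and 13.3%), and the median was −0.13. Mesothelial markers outside the rule had a lower median, −0.39 over 12 ranked of 14, with 9 intervals below 0 and 0 above, against 13.3% and 12.9% of all ranked genes. *Bnc1* had a log2 ratio of −0.76 (−1.13 to −0.39). The rule genes and *Wt1* had a median of −0.079 over 8 genes, which for the rule genes describes the choice of the cells. *Wt1*, outside the rule, had a log2 ratio of −0.145.

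Genes tied to the change of mesothelium into mesenchyme showed no common direction. *Vim*, the intermediate filament gene of mesenchyme, had 2236 CPM in control cells and 2169 CPM in *Gli1 HHIPCKO* (−0.044, −0.12 to 0.028). *Acta2*, the gene of smooth muscle actin, had 693 and 273 CPM (−1.35, −1.52 to −1.17), but its UMIs came from few cells, with a UMI in 13.3% and 16.8% of thinned cells (17.8% and 20.2% unthinned) and 18.9% and 15.1% of all UMIs in 1 cell. AT2-like cells had a UMI in 6.97% and 9.21% at 2000 UMIs, below the shares in mesothelial-like cells. Without the cells that held 3 markers of the lineages named for *Lcn2*, *Acta2* among them, the ratio turned to 1.33. Since *Acta2* took part in that choice, this value shows only that the ratio depends on the cells kept. It was −1.81 without the cells that met a fibroblast or AT2 rule. *Tagln*, another contractile gene, had 579.9 and 394 CPM (−0.56), with 1.62 and −1.56 under the same choices, so its direction was not stable, and *Ccn2*, a target of TGF-β and YAP, had 231 and 127 CPM (−0.87). *Mmp2*, a matrix protease, was higher at 134 and 245 CPM (0.88). Of 11 ranked genes of 18, 5 had a ratio above 0, 0 were at least 2-fold higher and 1 lower (against 1.47% and 1.31% of all ranked genes), 3 had an interval above 0 and 3 below 0 (against 12.9% and 13.3%), and the median was −0.042.

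**Figure D3:**
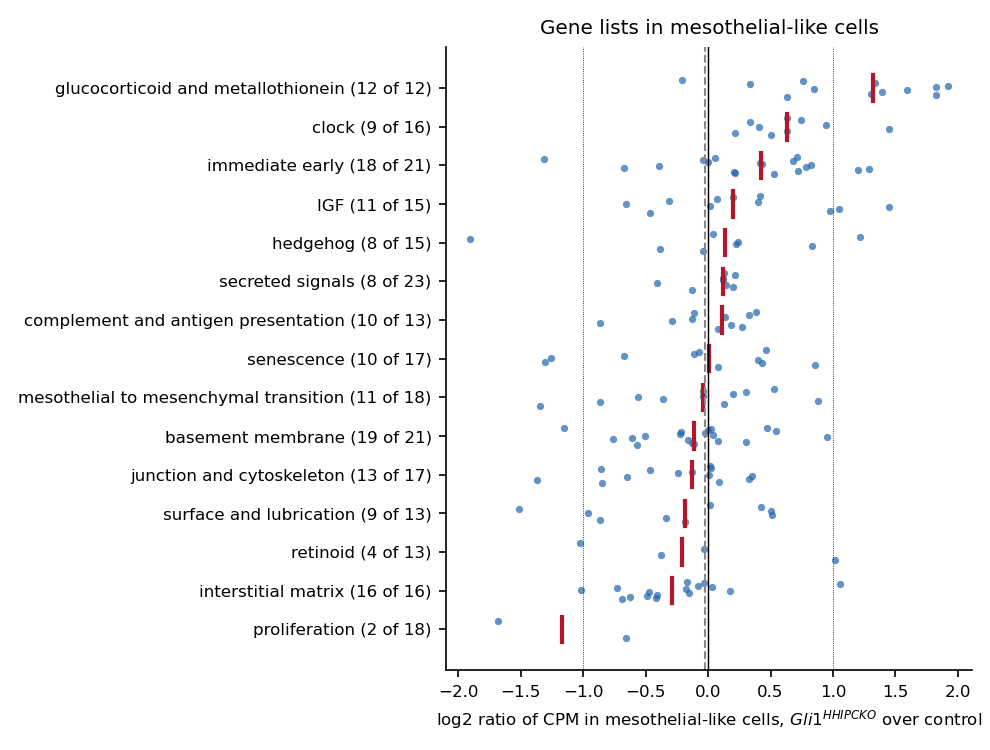
Log2 ratio of CPM in mesothelial-like cells, *Gli1 HHIPCKO* over control, of each ranked gene (points) of the 15 gene lists, with the number of ranked genes of all genes in brackets; thick bars are list medians, the dashed line is the median of all ranked genes (−0.023) and dotted lines mark 2-fold. The glucocorticoid and metallothionein list had the highest median (1.32), and the proliferation list, with only 2 ranked genes, the lowest (−1.17).

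Glucocorticoid and metallothionein genes were the list with the most genes past 2-fold. All 12 genes were ranked, 7 were at least 2-fold higher and 0 lower in *Gli1 HHIPCKO* cells, against 1.47% and 1.31% of all ranked genes, and the median log2 ratio was 1.32. This list, like the clock, immediate early and other lists, was chosen with earlier results of these data known. Its count past 2-fold therefore describes the list and is not independent support for it. *Glul*, glutamine synthetase, had 183 CPM in control cells and 553 CPM in *Gli1 HHIPCKO* (1.59, 1.39 to 1.80), and *Errfi1*, a feedback inhibitor of EGF receptor signalling, had 139 and 343 CPM (1.30, 1.06 to 1.55). Without the cells that met a fibroblast or AT2 rule, *Errfi1* had 0.12, *Glul* 1.60 and the list a median of 0.87. *Tsc22d3*, the glucocorticoid-induced leucine zipper gene, was the most abundant, at 349 and 592 CPM (0.76, 0.60 to 0.93). *Fkbp5*, a chaperone partner of the glucocorticoid receptor, had 46.8 and 123 CPM (1.39, 0.98 to 1.82). The only gene with a ratio below 0 was *Zbtb16* (−0.21, −0.79 to 0.37). The direction was shared by all other cells for *Glul* (1.11), *Errfi1* (0.92) and *Fkbp5* (2.22), while *Tsc22d3* differed little there (0.053). When in the day the mice were sampled is not given in the sources used here, and time of day, handling and the deletion cannot be told apart.

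The metallothionein genes *Mt1* and *Mt2*, which bind metal ions and respond to metals, glucocorticoids and stress, stood side by side on chromosome 8 and were among the 10 highest genes. *Mt1* had 94.3 CPM in control cells and 333 CPM in *Gli1 HHIPCKO* (1.82, 1.54 to 2.11), and *Mt2* had 8.95 and 33.9 CPM (1.92, 1.01 to 2.93). *Mt2* rested on 13 control UMIs, 46.2% of them in 1 cell, and 47 *Gli1 HHIPCKO* UMIs. A UMI of *Mt1* was found in 12.2% and 27.9% of thinned mesothelial-like cells (19.0% and 35.9% unthinned) and in 27.6% and 57.5% of thinned AT2-like cells, where it was also higher in *Gli1 HHIPCKO*. Their promoters, as 300-base windows around the start of the gene, are printed from RefSeq (GRCm38.p6) because both genes were higher together and are textbook targets of the metal response element. Capitals mark its core TGCNCNC on either strand.
*Mt1* (chr8:94178839-94179138, plus strand): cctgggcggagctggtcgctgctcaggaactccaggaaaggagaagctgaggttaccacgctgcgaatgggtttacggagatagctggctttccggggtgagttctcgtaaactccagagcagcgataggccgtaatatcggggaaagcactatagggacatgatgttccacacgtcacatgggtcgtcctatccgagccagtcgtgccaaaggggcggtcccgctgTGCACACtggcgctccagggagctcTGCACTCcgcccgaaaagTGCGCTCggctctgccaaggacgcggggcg
*Mt2* (chr8:94172368-94172667, plus strand): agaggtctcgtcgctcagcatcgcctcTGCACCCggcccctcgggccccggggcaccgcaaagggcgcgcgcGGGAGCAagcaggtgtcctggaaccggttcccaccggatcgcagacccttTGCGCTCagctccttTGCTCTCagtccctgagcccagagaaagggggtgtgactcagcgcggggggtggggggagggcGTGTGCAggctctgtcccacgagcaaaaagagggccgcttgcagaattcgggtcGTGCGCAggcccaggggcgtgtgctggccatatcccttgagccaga
The *Mt1* window holds 3 copies of the core, all on its own strand, and the *Mt2* window 6, 3 on each strand. At least 1 copy is in 51.0% of all 32851 promoters in the table, at least 3 copies are in 7.10% and at least 6 in 0.225%. A match of these letters describes the sequence and is no evidence of binding.

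The metal core was 1 of 15 motifs that were looked for, on both strands and after the values of the genes were seen, in the promoters of this list and of marker, hedgehog, IGF, immediate early and clock genes, so its choice was not independent of the data. Of the 12 genes of the glucocorticoid and metallothionein list, 10 were in the promoter table. The glucocorticoid receptor core TGTTCT was in 2 of them (*Sgk1* and *Tsc22d3*) and in 19.0% of all promoters, the metal core in 9, and its stricter form TGCGCNC in 6 and 15.4% of all. The other motifs, with the number of the list's promoters and the share of all promoters that hold them, were the GLI motifs GACCACCC (0, 0.807%) and TGGGTGGTC (0, 0.253%), CACGTG (3, 7.15%), TTACGTAA, TTACATAA, TTATGTAA or TTATATAA (0, 1.59%), GGAATG (2, 14.7%), TGACTCA or TGAGTCA (1, 5.20%), TGACGTCA (1, 1.79%), GCGGGGGCG (1, 2.91%), GNGGGNGNG (6, 43.8%), GGGCGG (8, 35.7%), the CArG box (0, 1.63%) and its loose form of CC and GG with any 6 bases between them (10, 73.3%). The metal core was thus not alone in being frequent in this list.

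Clock genes were mostly higher in *Gli1 HHIPCKO* cells. All 9 ranked genes of 16 had a ratio above 0, 7 with an interval above 0 (against 12.9% of all ranked genes), 1 was at least 2-fold higher (against 1.47%) and the median was 0.63. The most abundant, *Per1*, had 199.7 CPM in control cells and 253 CPM in *Gli1 HHIPCKO* (0.34, 0.11 to 0.57). *Dbp*, an output gene of the clock, had 20 and 52 UMIs, 13.8 and 37.5 CPM (1.45, 0.68 to 2.27). All other cells differed in the same direction, at 0.64 for *Per1* and 0.95 for *Dbp*.

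Immediate early genes, which respond quickly to signals and to tissue dissociation, were also mostly higher. *Fos* had 627 CPM in control cells and 1444 CPM in *Gli1 HHIPCKO* (1.20, 1.09 to 1.32), with a UMI in 33.7% and 51.2% of thinned cells. Over cells of any depth the shares were alike, 43.8% and 43.3%, with more shallow cells in *Gli1 HHIPCKO*. AT2-like cells held it in 69.9% and 85.1% at that depth, so it was common to epithelial cells too. *Jun* had 661 and 1168 CPM (0.82), and *Jund*, the most abundant of the list in control, 935 and 1247 CPM (0.41). *Nr4a1*, an orphan nuclear receptor gene, was the opposite, at 174 and 70.0 CPM (−1.32, −1.67 to −0.97). Of 18 ranked genes of 21, 2 were at least 2-fold higher and 1 lower (against 1.47% and 1.31% of all ranked genes), 12 had an interval above 0 and 3 below 0 (against 12.9% and 13.3%), and the median was 0.42. The higher ones were *Fos* and *Fosb* (1.29), and both fell short of 2-fold with the mean over cells, at 0.961 and 0.811. *Fosb* had 0.486 without the cells that met a fibroblast or AT2 rule. All other cells had smaller ratios for *Fos* (0.54) and *Jun* (0.38), a difference that was not tested.

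Few retinoid genes were ranked, and they went both ways. *Aldh1a2* had 685 CPM in control cells and 527 CPM in *Gli1 HHIPCKO* (−0.38, −0.52 to −0.24), while its relative *Aldh1a1* had 68.2 and 138 CPM (1.02, 0.66 to 1.38) and the retinol carrier gene *Rbp4* 64.7 and 31.7 CPM (−1.03, −1.58 to −0.50). Of 13 retinoid genes, 4 were ranked, 1 at least 2-fold higher (*Aldh1a1*) and 1 lower (*Rbp4*) (against 1.47% and 1.31% of all ranked genes), and 1 had an interval above 0 and 2 below 0 (against 12.9% and 13.3%). Both 2-fold calls were marginal. Under the alternatives *Aldh1a1* came down to 0.88 and *Rbp4* to −0.985. The list had a median of −0.21 that rests on these few genes and turned to 0.29 when genes with at least 10 UMIs were ranked. Secreted signal genes differed little. Among them, *Rspo1* (0.12) and the semaphorin gene *Sema3c*, with 434 and 471 CPM (0.12), had intervals that included 0. None of 8 ranked genes of 22 in the files reached 2-fold (against 1.47% and 1.31% of all ranked genes), 0 had an interval above 0 and 1 below 0 (against 12.9% and 13.3%), and the median was 0.12. *Pdgfa* alone had an interval below 0 (152 and 114 CPM, −0.41).

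Senescence genes, which the study examined in the lung, had no common direction in mesothelial-like cells. *Cdkn1a*, the cell cycle inhibitor p21, had 116 CPM in control cells and 211 CPM in *Gli1 HHIPCKO* (0.86, 0.58 to 1.14), with a UMI in 17.8% and 27.5% of thinned cells (24.8% and 35.3% unthinned). AT2-like cells held it less often than mesothelial-like cells in control and more often in *Gli1 HHIPCKO*, at 30.2% of thinned cells, and all other cells had a log2 ratio of 1.16. In mesothelial-like cells the ratio was 0.14 without the cells that met a fibroblast or AT2 rule and 0.53 without those that held markers of other lineages, so it was smaller under both choices. The inhibitor gene *Cdkn2d* and the lysosomal gene *Glb1* were lower, at −1.30 (−2.05 to −0.60) and −1.25 (−2.04 to −0.52), from 62 and 24 UMIs and 55 and 22 UMIs. *Cdkn2a* had 0 UMIs in the mesothelial-like cells of both libraries. *Cdkn2d* had −0.36 without the cells that met a fibroblast or AT2 rule, where 4 and 4 UMIs were left. *Glb1* fell narrowly short of 2-fold, at −0.982, without the cells that held markers of other lineages. Of 10 ranked genes of 17, 0 were at least 2-fold higher and 2 lower (against 1.47% and 1.31% of all ranked genes), 3 had an interval above 0 and 3 below 0 (against 12.9% and 13.3%), and the median was 0.0050. The most abundant in control, *Timp1*, had 196 and 180.4 CPM (−0.12, −0.37 to 0.13).

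Transcripts of dividing cells were found in more control than *Gli1 HHIPCKO* mesothelial-like cells. A UMI of *Mki67* or *Top2a*, which mark dividing cells, was found in 23 of 331 control cells (6.95%, 4.46% to 10.2%) and in 5 of 351 *Gli1 HHIPCKO* cells (1.42%, 0.464% to 3.29%). At least 3 of the 18 proliferation genes were found in 35 control cells (10.6%, 7.48% to 14.4%) and 20 in *Gli1 HHIPCKO* (5.70%, 3.51% to 8.66%), a smaller difference with intervals that overlapped. At 2000 UMIs *Mki67* alone was in 4.44% and 2.05% of cells (6.04% and 1.42% unthinned), and AT2-like cells had it in 1.84% and 0.713%. The histone gene *H2afz*, the most abundant of the proliferation list, had 424 CPM in control cells and 268 CPM in *Gli1 HHIPCKO* (−0.66, −0.85 to −0.47). Only 2 of 18 genes of the list were ranked, *H2afz* and *Stmn1*, both with an interval below 0 (against 13.3% of all ranked genes). Of these, 1 (*Stmn1*) was at least 2-fold lower (against 1.31%), though *Stmn1* turned to 2.22 without the cells that met a fibroblast or AT2 rule. All other cells differed in the same direction, at −0.31 for *H2afz*. The control cells were deeper. With each cell thinned to 2000 UMIs, which also left out the shallower cells, the log2 ratio of *H2afz* in mesothelial-like cells was −0.70 and that of *Stmn1* −1.30. The part of depth in these differences was not tested.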

How the data were processed

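The authors made 10x single-cell libraries, aligned reads to mm10 and deposited a matrix of UMI counts per gene and barcode for each mouse. Per the file headers this used Cell Ranger 6.1.0, while the submitters' notes give 3.1.0, and the series text and the sample labels name different 10x kits. The authors' filters were used. Of 32285 gene identifiers, 32235 matched GENCODE vM21 (GRCm38). UMIs were summed over cells with pandas 2.3.3, scipy 1.17.1 and numpy 2.4.6, plotted with matplotlib 3.10.9 (Python 3.11.15), and the scripts were tested on simulated data. Thinning drew 2000 UMIs per cell without replacement. Comparison cells carried at least 3 of 7 adventitial fibroblast genes, at least 3 of 7 alveolar fibroblast genes without *Epcam*, or at least 4 of 7 AT2 genes, and cells that met more than 1 of these rules or the mesothelial rule were left out of them. No doublet caller was run. Named genes were the rule genes, the 12 genes in at least 25% of cells of both libraries with the largest ratio over other cells, the 10 ranked genes highest and the 10 lowest in *Gli1 HHIPCKO*, the 2 to 4 genes of each list with the most UMIs, and *Hhip*, *Gli1*, *Ptch1*, *Igf1*, *Igf1r*, *Acta2* and *Cdkn1a*. Other list genes, the variable markers, the genes of the stroma and the printed promoters were chosen after their values were seen. Members and lists were chosen with earlier results of these data known. Alternatives changed the rule, depth, filters, average, totals, centring and gene minimum.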

Additional observations from a re-analysis of the deposited data

Results flagged for a closer look

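The ratio of *Gli1 HHIPCKO* over control pointed one way in mesothelial-like cells, past 2-fold, and the other way in all other cells for a few of the genes examined. *Eln* had a log2 ratio of −1.02 in mesothelial-like and 0.11 in all other cells, and *Nid2* −1.15 and 0.27. Under the alternatives *Eln* ranged from −1.11 to −0.88 and *Nid2* from −1.15 to −0.69, so neither stayed past 2-fold in all of them. Both encode matrix proteins, *Nid2* of the basement membrane and *Eln* of the elastin-rich layer beneath it. *Hbb-bs*, a beta globin gene, had 3.30 and −0.45, and *Hbb-bt* 2.75 and −0.46. *Hbb-bs* had 1354 CPM in control and 13341 in *Gli1 HHIPCKO* mesothelial-like cells. At least 5% of the UMIs were of haemoglobin genes in 1 control and 8 *Gli1 HHIPCKO* cells, so the globin ratios rested on few cells. Without these cells, a choice made after the data were seen, *Hbb-bs* had a log2 ratio of 0.295 and *Hbb-bt* −0.373. Neither globin gene thus stayed past 2-fold. The difference between mesothelial-like and other cells was not tested for any of these genes, since each group had 1 mouse.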

How the results depend on the processing

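Leaving out the mesothelial-like cells that also met the marker rule for AT2-like, adventitial or alveolar fibroblast-like cells took away most of them. It left 0.889% (97 of 10917 cells) in control and 1.27% (154 of 12115 cells) in *Gli1 HHIPCKO*, with 2123 ranked genes, 58 of them at least 2-fold higher and 36 lower. The list medians became 0.14 for basement membrane, −0.47 for proliferation and 0.87 for glucocorticoid and metallothionein genes, and *Stmn1* reversed to 2.22. The lower counts go with the fewer cells, and the cause of the other changes was not tested.

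With each cell thinned to 2000 UMIs, 2.90% (253 of 8711 cells) were mesothelial-like in control and 2.26% (220 of 9732 cells) in *Gli1 HHIPCKO*, 74 of 3284 ranked genes were at least 2-fold higher and 39 lower, and the medians were −0.38 for mesenchymal transition and −0.70 for proliferation genes. With at least 4 rule genes, the *Gli1 HHIPCKO* share was 2.59% (314 of 12115 cells). With at least 2, the surface and lubrication median was −0.079. The mean over cells gave medians of 0.52 for IGF, −0.058 for surface and lubrication and 0.17 for immediate early genes. A minimum of 200 UMIs gave 43 higher and 19 lower of 2354 genes and a proliferation median of −0.66. A minimum of 10 UMIs with no minimum share gave 552 and 600 of 11712 genes and a retinoid median of 0.29. These minimums change which genes are ranked, and the cause of the other changes was not tested.

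An alternative chosen after seeing the data left out cells with at least 3 markers of airway secretory, ciliated, endothelial, immune, smooth muscle and pericyte or AT1 cells or at least 5% haemoglobin UMIs. The shares were 2.49% (272 of 10917 cells) and 2.37% (287 of 12115 cells), 123 genes were at least 2-fold higher and 61 lower of 5503, and the medians were 0.24 for retinoid and 1.03 for glucocorticoid and metallothionein genes. *Acta2* reversed to 1.33, for which it was itself a marker, and *Hbb-bt* to −0.27. Leaving out only the cells with at least 5% haemoglobin UMIs, also chosen after seeing the data, took *Hbb-bt* to −0.37. This choice removed 1 cell from the control library and 8 from the other. *Hbb-bt* had been detected in 21.45% (control) and 17.38% (*Gli1 HHIPCKO*) of the mesothelial-like cells, so most cells that held it stayed.

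A share counted as moved outside its 95% interval, a number of genes when it changed by more than 1.5-fold, and a list median when it changed by at least the median distance from the middle to the end of the intervals of its genes. By these, centring on the median, other totals and no filter on cells moved no share, number of genes or list median, and the last gave the same cells. The mean over cells gave 132 higher and 111 lower genes, within that limit. The 10 higher genes remained above 0 under all 10 planned and 2 added alternatives, and the 10 lower genes below 0 except *Stmn1*, but gene minimums cannot change a ratio. Without cells that met another marker rule, 8 of the 10 higher and 5 of the 10 lower stayed past 2-fold (9 and 10 without cells with markers of other lineages), *Rgcc*, *Mt2* and *Svep1* with no control UMI left, and *Lgals7* had −0.014. Several others that stayed past 2-fold without cells that met another marker rule rested on few UMIs, such as *Cacna1d* with 1 and 10. Counted over genes and alternatives, of the single gene ratios, 1702 stayed within their interval, 251 left it and 4 changed sign while past 2-fold. No paired analysis was possible because each group had 1 mouse. With 1 library per group, differences between mice, sex, tamoxifen and the deletion cannot be told apart. At this depth a gene with 0 UMIs could be at up to 2.07 CPM in control cells and 2.16 in *Gli1 HHIPCKO* cells.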
